A study of Mus musculus with 20 samples.

Results

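The clustered protocadherins are a family of cell surface adhesion proteins encoded by 3 neighbouring gene clusters, alpha, beta and gamma. Members were taken as the rows of the deposited count table whose gene symbol has the form Pcdha, Pcdhb or Pcdhg with an optional a, b or c and a number. This gave 58 rows of 29671 in the table: 14 of the alpha, 22 of the beta and 22 of the gamma cluster. They carry 57 distinct symbols, because Pcdha11 stands in 2 rows with different identifiers. All 58 lie on the forward strand of chromosome 18 in GRCm38, the alpha rows from 36930184 to 37187661, the beta rows from 37264938 to 37524479 and the gamma rows from 37661793 to 37841873. After the filter on low counts 57 members could be tested. The row left out was Pcdhb1, which had 0 to 6 counts per library.

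Messenger RNA was sequenced from punches of the amygdala of 20 male C57B6 mice aged 84 postnatal days, with no earlier behavioural testing. The mice were F1 or F2 offspring of a lineage that began with chronic unpredictable stress, or of a lineage without it. The 4 groups of 5 mice were the F1 no-stress, F1 stress, F2 no-stress and F2 stress lineage, and all share the strain, sex, age and dissection. The sampled mice were not stressed themselves as far as the labels say, and parents, litters and the side of inheritance were not analysed here.

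Each clustered protocadherin is a single-pass membrane protein with extracellular cadherin repeats that binds the same isoform on a neighbouring cell. In the alpha and gamma clusters each row has its own promoter and a large variable first exon, which is spliced to constant exons shared by the whole cluster. The beta genes are each a single exon with no constant part. A neuron uses a largely random set of the alternate promoters, chosen with the help of CTCF and cohesin, and the combination gives it a surface identity used in dendrite self-avoidance and wiring. The C-type members, Pcdhac1, Pcdhac2, Pcdhgc3, Pcdhgc4 and Pcdhgc5, lie at the ends of the alpha and gamma clusters and are expressed by rules of their own.

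Column totals ran from 13654890 to 13714805 counts, which are nearly equal, and the depth at which the libraries were sequenced is unknown. All 8 neuron markers were present in every library. The summed markers of striatal neurons ran from 539 to 5358 CPM (counts scaled to a common library total) and those of pallial neurons from 46.52 to 1179 CPM over the 20 libraries, so the punches differed in the marker RNA of these neurons. Of the serotonergic markers, Fev was at 0 counts in 18 of 20 libraries, and of the choroid plexus markers Folr1 was at 0 in 9 and Kcne2 in 10. In bulk tissue fewer cells of a type and less RNA per cell cannot be told apart. The libraries also differed in a GC tilt, the median log2 deviation of genes in the highest of 10 bins of GC content minus that in the lowest, which averaged 0.34 ± 0.27 (SD) in F2 no-stress, −0.19 ± 0.26 in F2 stress and −0.07 in both F1 groups (n = 5 each).

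The 3 clusters stood at 3 separate levels, and within the alpha and gamma clusters nearly all rows read alike. The 14 alpha rows had mean levels of 102 to 130 CPM and the 22 gamma rows 426 to 535 CPM over 20 libraries. The 22 beta rows ran from 0.143 to 15.04 CPM. In a given library the lowest alpha row held 75.5 to 82.9% of the counts of the highest and 93.6 to 96.8% of the second highest. For gamma these shares were 76.0 to 83.2% and 92.3 to 95.4%. The rows of a cluster share its constant exons in the annotation, and no source used here says how their reads were assigned. The 14 alpha rows were therefore read as close to 1 measurement and the 22 gamma rows as close to another, while each beta row is a gene of its own.

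**Figure D1:**
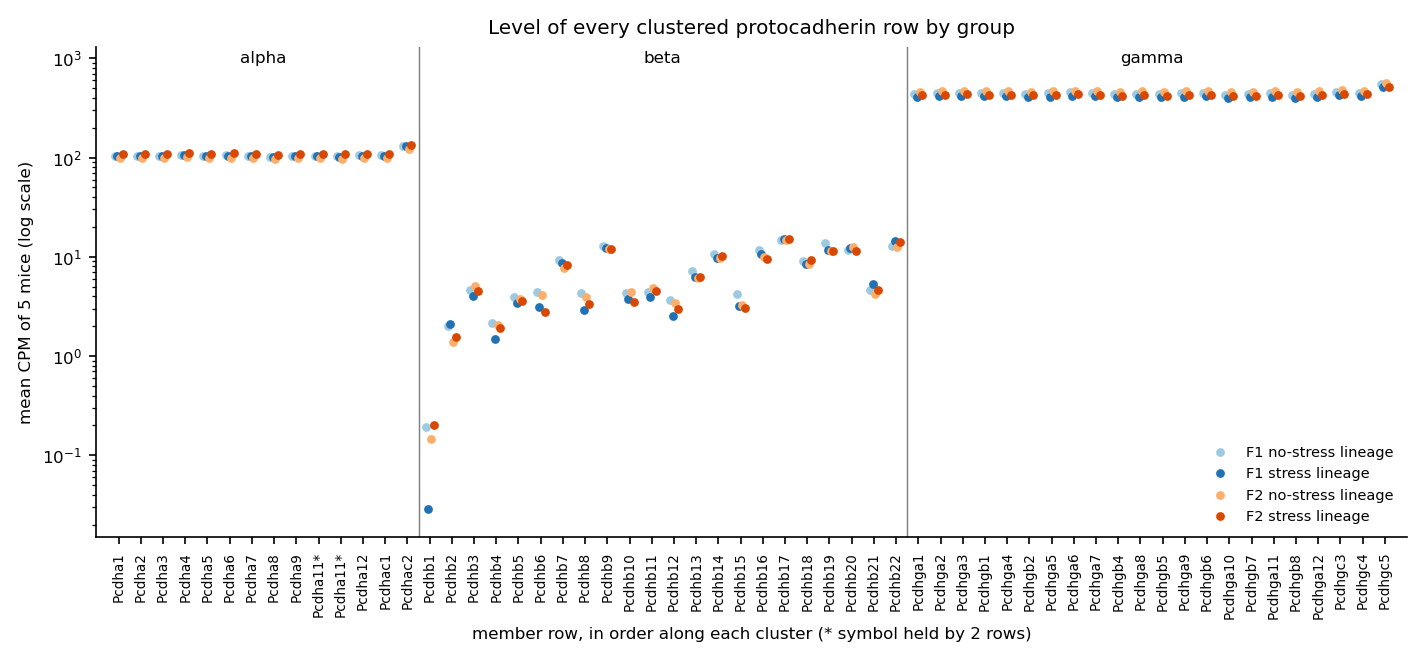
Mean CPM (log axis) of the 58 member rows in order along each cluster, with 1 point per group of 5 mice. The alpha rows form a plateau near 102 to 130 CPM and the gamma rows near 426 to 535 CPM, each with its last C-type row highest, and the beta rows scatter from 0.143 to 15.04 CPM.

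Set against length, the gamma cluster was the most abundant and the alpha and beta clusters were nearly level. The lowest alpha row, at 102 ± 13.74 CPM (SD, n = 20), corresponds to 35.6 ± 4.80 CPM per kb of the 2860 constant bases. The lowest gamma row, at 426 ± 42.7 CPM, corresponds to 201 ± 20.1 CPM per kb of the 2119 constant bases. These are upper limits for the constant exons, because the lowest row also holds some reads of its own variable exon. The beta rows, each divided by its own exon length and then added up, came to 34.54 ± 4.54 CPM per kb. Gamma exceeded alpha per kb in each of the 20 libraries, by 4.30 to 7.75-fold. The beta sum lay above the alpha value in 6 of 20 libraries, with a ratio of 0.704 to 1.22, so these 2 clusters did not separate beyond the spread between mice.

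Variation between mice of a group also differed by cluster. The biological coefficient of variation from the fit had a median of 11.2% over the gamma rows, 13.8% over the alpha rows and 18.4% over the 21 tested beta rows, against 15.1% over all 16727 tested genes. The beta values ran from 12.6% for Pcdhb17 to 35.9% for Pcdhb6, and the mean count of the beta rows that were tested was only 24.1 to 205 per library.

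Within the alpha cluster, Pcdha8 was the lowest row in all 20 libraries, tied with 1 of the 2 Pcdha11 rows in F2 stress replicate 12. The excess of a row over the lowest row of its cluster in the same library was used as a lower bound for the reads of its own exons. Pcdhac2, the C-type member nearest the constant exons, stood out with an excess of 27.9 ± 2.43 CPM (SD, n = 20), range 23.8 to 32.2, which made up 21.5% of its row. Next came Pcdha4 with 4.75 ± 1.07 CPM and Pcdha6 with 3.11 ± 0.720 CPM. The annotated exons of Pcdha4 cover 5768 bases and its longest transcript 5363, and the share of the further bases in its excess is not known. Pcdhac1, the other alpha C-type member, had an excess of only 2.51 ± 0.903 CPM, near those of Pcdha12, Pcdha9 and Pcdha7. The remaining rows other than Pcdha8 lay between 0.519 and 2.29 CPM, and from Pcdha6 down to Pcdha1 each row lay within 1 SD of the next. The 2 Pcdha11 rows differed by −4 to 32 counts per library, with means of 1413 and 1398.

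In the gamma cluster the lowest row was Pcdhga10 in 12 libraries and Pcdhgb8, annotated as a polymorphic pseudogene, in 8. Pcdhgc5 had by far the largest excess, 109 ± 18.7 CPM (SD, n = 20). Its annotation includes a transcript with a retained intron, and the overlapping model Gm38182 held 947 to 1590 counts per library, so the share of Pcdhgc5 messenger RNA in this excess is not known. Pcdhgc3 followed with 25.0 ± 4.36 CPM and Pcdhgc4, a member needed for neuron survival, with 17.1 ± 5.96 CPM. Among the a- and b-type rows other than Pcdhga10 and Pcdhgb8, whose mean excess was 0.0983 and 0.175 CPM, it ran from 16.8 ± 3.87 CPM for Pcdhga6 and 14.8 ± 2.70 CPM for Pcdhga7 down to 3.87 CPM for Pcdhgb7. The a-type rows other than Pcdhga10 lay at 6.36 CPM or more. The b-type rows lay at 12.8 CPM for Pcdhgb6, 11.5 for Pcdhgb1 and between 3.87 and 6.87 for the others except Pcdhgb8.

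Per kb of variable exon, Pcdhac2 reached an excess of 9.20 CPM and Pcdhgc3 one of 9.74 CPM. For Pcdhgc5 the same figure was 41.5 CPM per kb and for Pcdhgc4 5.87. Pcdha4 and Pcdha6 had 1.90 and 1.24 CPM per kb, in the range of the beta genes.

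The C-type members varied among mice in distinct ways. The Pcdhgc5 excess fell into 2 ranges, 79.2 to 98.7 CPM in 8 libraries and 115 to 131 CPM in 12, with none between. The lower range held 1 F1 no-stress, 2 F1 stress, 2 F2 no-stress and 3 F2 stress mice. These 8 libraries had scaling factors of 1.01 to 1.04 in the fit and striatal marker sums of 539 to 2696 CPM. The 12 of the upper range had factors of 0.956 to 1.03 and sums of 1965 to 5358 CPM. The part of library composition in the 2 ranges was not tested, and Pcdhgc5 was not among the relations to markers below. Pcdhgc4 stood at 17.9 to 31.4 CPM in those 8 libraries and at 9.96 to 18.7 CPM in the 12, and the 2 sets overlapped only between 17.9 and 18.7 CPM. Because the libraries form 2 ranges, no correlation over all 20 is given. Within the ranges Pearson's r was −0.41 (exact permutation p = 0.317, two-sided, Spearman's rho −0.45, exact p = 0.267, n = 8) and −0.30 (permutation p = 0.341, rho −0.29, p = 0.355, n = 12). Without the 2 libraries farthest from the median these values were −0.15 and −0.10.

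**Figure D2:**
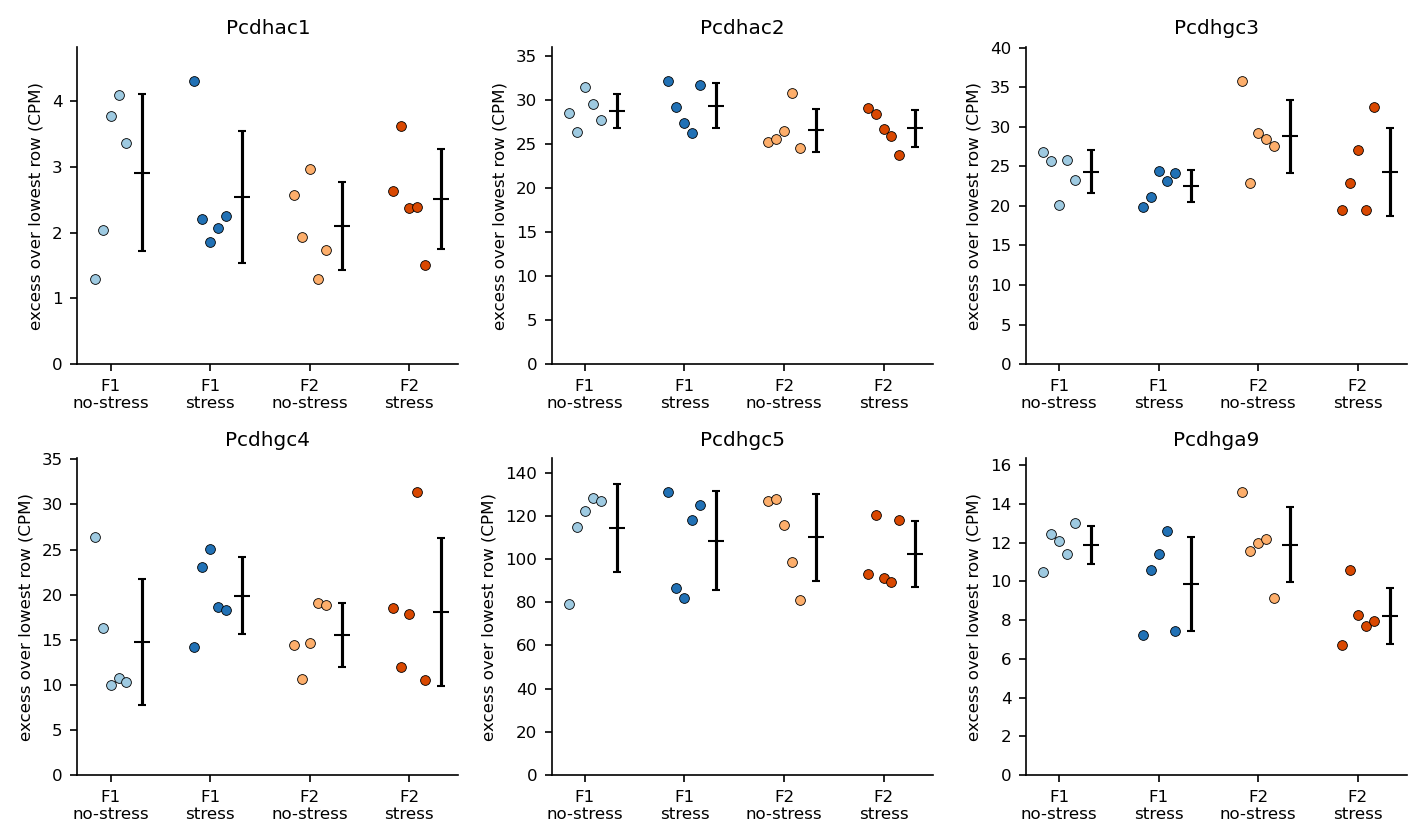
Excess over the lowest row of the same cluster (CPM) for the 5 C-type members and Pcdhga9, with 1 point per mouse and bars for mean and SD of 5 mice. Pcdhgc5 falls into a lower range up to 98.7 CPM and an upper range from 115 CPM in every group, and the Pcdhga9 values of the F2 stress mice lie mostly below those of the F2 no-stress mice.

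The annotation also holds models that join exons of the alpha cluster to constant exons of the gamma cluster. Gm42416, which combines the Pcdha4 variable exon with gamma constant exons (36952741 to 37840200), held 514 to 1014 counts per library. Gm37013 and Gm37388 both held about the same reads, 98 to 147 and 98 to 151 counts, and never differed by more than 5. Since the treatment of shared reads is not stated, these counts do not show that joined transcripts exist.

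The beta genes had levels of their own. Pcdhb9 was the most abundant per length, at 4.03 ± 0.558 CPM per kb (SD, n = 20), followed by Pcdhb20 at 3.37 ± 0.424 and Pcdhb17 at 3.23 ± 0.388. Pcdhb7 (2.43 CPM per kb), Pcdhb22 (2.04), Pcdhb16 (1.996), Pcdhb18 (1.75), Pcdhb13 (1.73) and Pcdhb19 (1.70) came next. At the low end stood Pcdhb2 (0.624), Pcdhb4 (0.513) and Pcdhb1 (0.0553 CPM per kb). For 18 of 21 steps in this order the next lower gene lay within 1 SD. The exceptions were the steps below Pcdhb9, below Pcdhb17 and below Pcdhb4.

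In CPM, which rewards length, the 3 highest were Pcdhb17 at 15.04, Pcdhb22 at 13.51 and Pcdhb9 at 12.3. The 5 with the most counts took 43.8% of all beta counts. By position, the median was 1.0 CPM per kb over genes 1 to 8 from the alpha side, 1.22 over genes 9 to 15 and 1.996 over genes 16 to 22 next to the gamma cluster. This is a description of 22 genes and was not tested.

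Cluster levels by mouse showed wide overlap between groups. The lowest alpha row stood at 99.6, 84.8, 112, 92.0 and 124 CPM in the F1 no-stress mice and at 112, 106, 84.3, 99.8 and 106 CPM in the F1 stress mice. In F2 it stood at 90.9, 96.8, 110, 103 and 82.2 CPM in the no-stress and 106, 137, 106, 101 and 85.2 CPM in the stress lineage. Stress replicate 12 was the highest of all 20, and the ranges of all 4 groups overlapped.

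The lowest gamma row stood at 392, 446, 411, 459 and 451 CPM in F1 no-stress and at 414, 379, 385, 406 and 416 CPM in F1 stress mice. In F2 it stood at 522, 471, 481, 451 and 352 CPM in the no-stress and 387, 437, 417, 376 and 471 CPM in the stress lineage. The F2 no-stress mice held both the highest value of all 20, in replicate 16, and the lowest, in replicate 20. Both F2 ranges overlapped, and so did both F1 ranges.

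The beta sum averaged 157 ± 14.1 CPM in F1 no-stress, 145 ± 10.8 in F1 stress, 146 ± 10.02 in F2 no-stress and 144 ± 35.4 in F2 stress mice (SD, n = 5 each). The F2 stress mice held both extremes, 193 CPM in replicate 12 and 105 CPM in replicate 14. Of the 21 tested beta genes, 10 had their highest value of all libraries in replicate 12 and 8 their lowest in replicate 14. Replicate 12 had the highest and replicate 14 the second lowest level of the neuron markers, at 7095 and 4355 CPM, and replicate 14 also had the lowest striatal sum, 539 CPM. Their part in the beta levels was not tested.

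**Figure D3:**
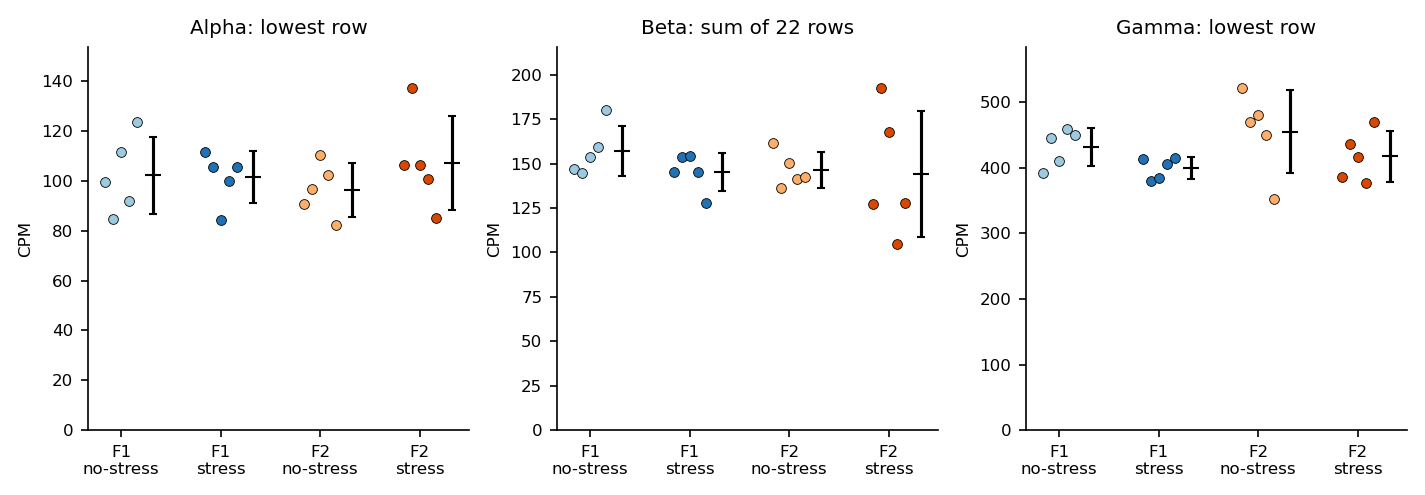
CPM of the lowest alpha row, the sum of the 22 beta rows and the lowest gamma row, with 1 point per mouse and bars for mean and SD of 5 mice. All 4 groups overlap in each panel, and the F2 stress mice spread widest in the beta sum, from 105 to 193 CPM.

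In the F1 generation, no clustered protocadherin reached the threshold in stress against no-stress mice. By edgeR's quasi-likelihood test with Benjamini-Hochberg adjustment 0 of 57 members passed an adjusted p of 0.05, in a comparison that called 0% of all 16727 genes. DESeq2 and limma-voom also called 0 members. At an unadjusted p below 0.05 there were 2 members, against 6.16% of all genes. The 14 alpha rows had a median log2 fold change of −0.01, stress against no-stress, and all 14 lay just below 0, a sign that turned positive with library totals as the scale (median 0.03). The 22 gamma rows had a median of −0.11 (SE of a row 0.08 to 0.10), all below 0, and −0.00855 with 1 surrogate variable in the model. Of the 21 beta genes 16 lay below 0, with a median of −0.16 (−0.06 with the surrogate variable), where the median of all genes was 0.00.

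The smallest p among beta genes belonged to Pcdhb12 and Pcdhb8. Pcdhb12 stood at 4.29, 2.41, 4.83, 2.91 and 3.90 CPM in no-stress and 3.17, 2.49, 1.72, 3.22 and 2.11 CPM in stress mice (log2 fold change −0.53 ± 0.21 SE, adjusted p = 0.739). Pcdhb8 stood at 4.22, 2.84, 6.04, 3.35 and 5.12 CPM against 2.57, 3.62, 4.15, 1.72 and 2.62 CPM (−0.55 ± 0.24, adjusted p = 0.739). In both genes the groups overlapped. Pcdhga6 and Pcdhga3 had values of −0.12 ± 0.09 each (adjusted p = 0.75 and 0.751), and Pcdhac1 and Pcdha5 −0.02 ± 0.12 each (adjusted p = 0.977 and 0.979).

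In the F2 generation the alpha rows had values above 0 and the gamma rows below 0, but 0 members passed. The test called 0 of 57 members, where it called 7.92% of all 16727 genes. DESeq2 and limma-voom called 0 members as well, and 0 members had an unadjusted p below 0.05, against 25.6% of all genes. All 14 alpha rows lay above 0 with a median log2 fold change of 0.15 (SE of a row 0.11 to 0.12). All 22 gamma rows lay below 0 with a median of −0.12 (SE 0.08 to 0.10). Of 21 beta genes 8 lay above and 13 below 0, with a median of −0.07. The median of all genes was 0.00. Without stress replicate 12 the alpha median was 0.04, and without stress replicate 14 the beta median was 0.0201. The gamma median was −0.20 without no-stress replicate 20 and −0.0687 without no-stress replicate 16. Because the rows of a cluster share their reads, the like sign of 14 or 22 rows counts as that of 1 value. For the same reason 0 of 57, here and in the other comparisons, rests on 21 beta genes and about 1 value each for alpha and gamma. At the shares of all genes called, 0 calls among so few separate values say little about the members.

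In F2 the gamma value depended on a correction for base composition, and the alpha value on how that correction was made. The constant exons of alpha have a GC content of 42.2% and those of gamma one of 53.7%. With each library's trend over GC content and length of whole transcripts entered as an offset, the F2 median was 0.0998 for alpha, −0.14 for beta and 0.000945 for gamma, and in F1 it was −0.0489, −0.19 and −0.15. With alpha and gamma rows placed by their constant exons instead, the F2 median was −0.0221 for alpha and −0.0108 for gamma. This second setting was chosen after the data were seen. In F1, where the tilt of both groups averaged −0.07, it gave 0.0250 for alpha and −0.0952 for gamma.

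Among single members in F2, Pcdhb10 had the smallest p. It stood at 4.62, 4.74, 4.57, 4.11 and 4.33 CPM in no-stress and at 3.21, 4.23, 3.44, 3.45 and 3.25 CPM in stress mice (log2 fold change −0.35 ± 0.17 SE, adjusted p = 0.215). Only stress replicate 12 lay inside the range of the other group. Pcdhb6 had a value of −0.57 ± 0.35 (adjusted p = 0.315), from 4.10 ± 1.19 to 2.76 ± 1.504 CPM (SD, n = 5 each).

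The other rows named by p shared their cluster's value. Pcdhac1 and Pcdha8 had 0.15 ± 0.12 each (adjusted p = 0.452 and 0.455), and Pcdhga9 and Pcdhgc3 −0.13 ± 0.09 each (adjusted p = 0.375 and 0.381). The 3 most abundant beta genes had close mean levels in both lineages. Pcdhb17 stood at 14.9 ± 1.81 CPM in no-stress and 15.1 ± 3.19 CPM in stress mice, and Pcdhb9 at 12.1 ± 1.90 and 11.96 ± 2.44 CPM. Pcdhb22 stood at 12.7 ± 0.920 and 14.02 ± 2.89 CPM (adjusted p from 0.518 to 0.959 for the 3 genes).

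**Figure D4:**
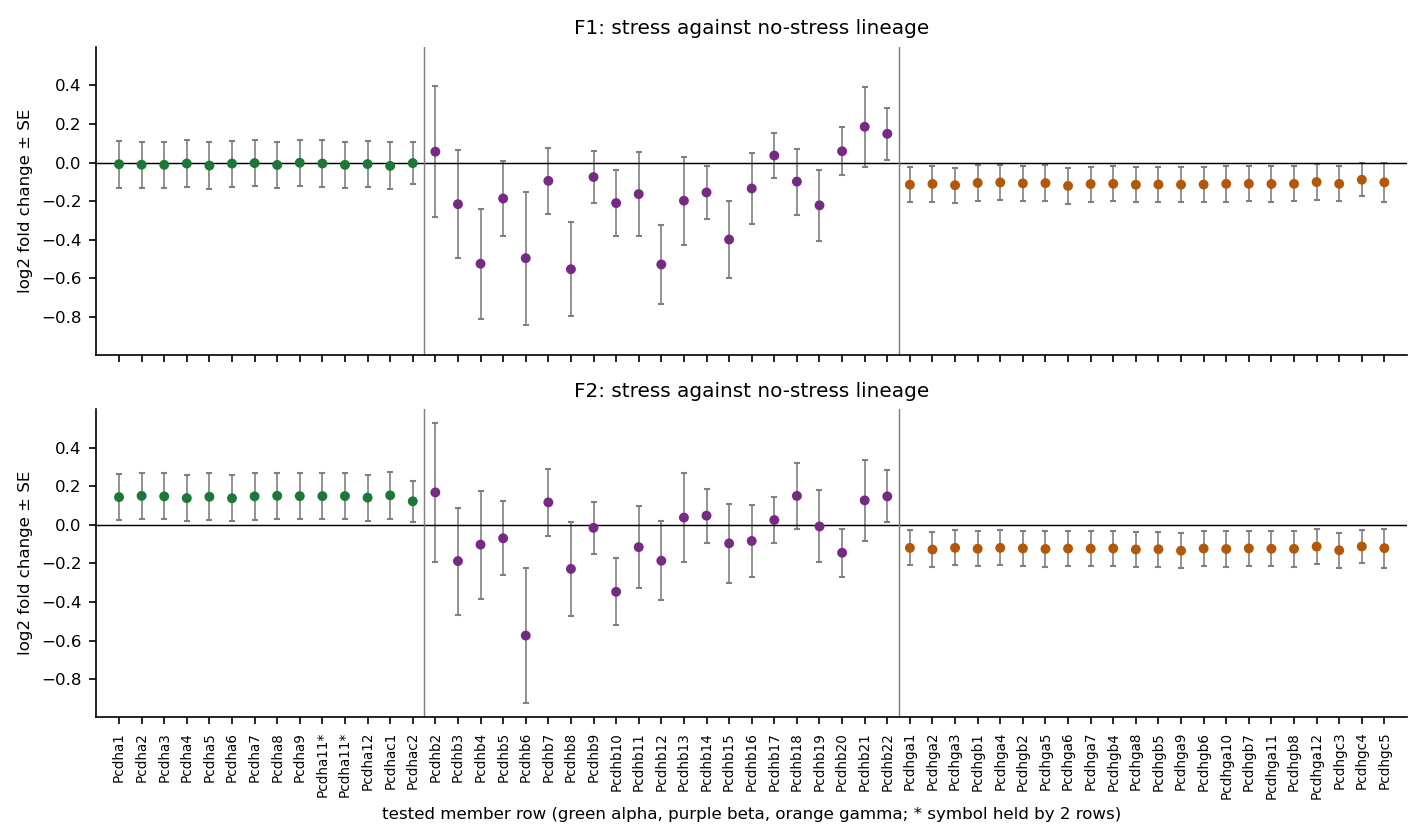
Log2 fold change ± SE, stress against no-stress lineage, of the 57 tested member rows in F1 (top) and F2 (bottom), in order along each cluster. Alpha rows lie at 0 in F1 and near 0.15 in F2, gamma rows near −0.11 and −0.12, beta genes scatter from −0.57 to 0.19, and 0 rows pass an adjusted p of 0.05.

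No member passed the edgeR test of the difference between the lineage effects in F2 and F1. This difference called 0 of 57 members, where 2.52% of all genes were called, and DESeq2 and limma-voom also called 0. The number with an unadjusted p below 0.05 was 0, against 21.2% of all genes. The median difference was 0.15 over the alpha rows (row SE 0.15 to 0.17), 0.11 over the beta genes and −0.01 over the gamma rows. Without F2 stress replicate 12 the alpha value was 0.0501 and the beta value −0.0574. With the offset the gamma value was 0.15, and by constant exons the alpha value was −0.0493 and the gamma value 0.0834. The members with the smallest p were Pcdhb12 (0.34 ± 0.29, adjusted p = 0.54), Pcdhb20 (−0.20 ± 0.18, 0.55), Pcdhac1 (0.17 ± 0.17, 0.617), Pcdha8 (0.16 ± 0.17, 0.629), Pcdhgc4 (−0.02 ± 0.12, 0.935) and Pcdhgc3 (−0.02 ± 0.13, 0.946).

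Generation also left the members without a call. In F2 against F1, 0 of 57 members passed within the no-stress lineage, where 2.0% of all genes were called. Within the stress lineage 0 passed, against 0.0120% of all genes. DESeq2 and limma-voom called 0 members in both, and 0 members had an unadjusted p below 0.05. In the no-stress lineage the median log2 fold change was −0.08 for alpha, −0.11 for beta and 0.07 for gamma, and in the stress lineage 0.07, −0.04 and 0.06. In the no-stress lineage gamma was at −0.0402 with the offset, and by constant exons alpha was at 0.0444 and gamma at −0.0269. These comparisons use the same libraries as those between lineages, so their values are not independent of them.

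A separate test, added after the data were seen, took the excess of each alpha and gamma row as its own count and the lowest row of each cluster once. It gave the alpha cluster a log2 fold change of −0.01 ± 0.12 SE in F1 and 0.15 ± 0.12 in F2. The gamma cluster had −0.11 ± 0.09 in F1 and −0.12 ± 0.09 in F2 (adjusted p from 0.414 to 0.983 for the 4 values). Of the 34 cluster and excess rows tested, 1 was called in F2, where 7.93% of all rows were, and 0 in the 4 other comparisons, where the shares were 0%, 2.51%, 2.02% and 0.0120%. The called row was Pcdhga9, an a-type gamma isoform.

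Its excess stood at 14.6, 11.6, 11.96, 12.2 and 9.16 CPM in F2 no-stress mice and at 6.70, 10.6, 8.25, 7.67 and 7.93 CPM in F2 stress mice. All but stress replicate 12 lay below the no-stress range. The excess fell by 0.53 on the log2 scale (SE 0.16, edgeR adjusted p = 0.0415). Since the lowest row includes own reads of another isoform, a fold of the excess overstates that of the isoform's own reads, and the full Pcdhga9 row had the value of −0.13 given above. In F1 the excess was 11.9 ± 0.967 CPM in no-stress and 9.86 ± 2.41 CPM in stress mice (adjusted p = 0.738). The effects in F1 and F2 were not shown to differ (difference −0.26, adjusted p = 0.531). The call was absent with the trend over GC content and length entered (−0.49, adjusted p = 0.167). It was also lost when F1 stress replicate 2, F1 no-stress replicate 7 or 9, F2 stress replicate 11, 13 or 14, or F2 no-stress replicate 16, 17, 18 or 19 was left out, with adjusted p up to 0.128.

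No C-type excess passed in any of the 5 comparisons. Between lineages in F2, Pcdhac2 stood at 26.6 ± 2.45 CPM in no-stress and 26.8 ± 2.12 CPM in stress mice (log2 fold change 0.01 ± 0.08 SE, adjusted p = 0.942). Pcdhgc3 stood at 28.8 ± 4.61 and 24.3 ± 5.56 CPM (−0.25 ± 0.13, adjusted p = 0.26), Pcdhgc4 at 15.5 ± 3.53 and 18.1 ± 8.24 CPM (0.22 ± 0.29, 0.684), and Pcdhgc5 at 110 ± 20.1 and 102 ± 15.4 CPM (−0.10 ± 0.16, 0.727). Pcdhac1 stood at 2.10 ± 0.670 and 2.51 ± 0.758 CPM (0.26 ± 0.32, 0.651).

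Across the 20 mice several alpha and gamma values went with summed cell type markers, and beta values were not examined in this way. In all 51 relations were computed on log2 values, of the Pcdha8 row, the Pcdhga10 row and the excess of Pcdhac2, Pcdhgc3 and Pcdhgc4 with 9 summed marker lists and the GC tilt, and of the 2 rows with each other. These were chosen after the data were seen, and all values of a library share its normalization. Of them 13 had a Benjamini-Hochberg adjusted permutation p below 0.05 for Pearson's r.

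The Pcdha8 row, which stands for the alpha cluster, followed the summed markers of neurons (Pearson's r 0.84, Spearman's rho 0.85, permutation p = 1e-05 for both, the smallest that 100000 permutations can give, adjusted 0.00051, two-sided). Without the 2 libraries farthest from the median r was 0.93, and with group means removed 0.84. Within the 4 groups r ran from 0.82 to 0.95. It also followed the pallial neuron markers (r 0.74, rho 0.77, permutation p = 9e-05 for both, adjusted 0.00153, and r 0.74 without 2 libraries). The Pcdhga10 row, for the gamma cluster, had no detectable relation to the Pcdha8 row (r 0.05, rho 0.04, permutation p = 0.82 and 0.857). It went with the striatal markers (r 0.63, rho 0.62, permutation p = 0.00278 and 0.00417, adjusted 0.0158 and 0.0213, r 0.57 without 2 libraries). It was lower where the serotonergic sum was higher (r −0.72, rho −0.70, permutation p = 0.00039 and 0.001, adjusted 0.00374 and 0.0085), a sum of only 0.98 to 4.22 CPM. Most of that sum was Slc18a2, with a mean of 1.80 CPM, against 0.583 for Tph2, 0.0546 for Slc6a4 and 0.00709 for Fev. With the endothelial markers the Pcdhga10 row had r 0.57 (rho 0.66, permutation p = 0.00898 and 0.00228, adjusted 0.0352 and 0.0143). Its relation to the GC tilt (r 0.59, rho 0.54, permutation p = 0.00571 and 0.0152, adjusted 0.0243 and 0.0516) fell to r = 0.36 without F2 no-stress replicates 16 and 18 and so rests partly on those. Within groups it ran from −0.15 to 0.99.

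Pcdhgc4 was lower where striatal markers were higher (r −0.83, rho −0.83, permutation p = 2e-05 and 4e-05, adjusted 0.00051 and 0.00102). Without the 2 farthest libraries r was −0.76, with group means removed −0.81, and within the groups −0.96 to −0.56. Pcdhgc4 was higher where the serotonergic sum, mostly Slc18a2, was higher (r 0.66, rho 0.68, permutation p = 0.00186 and 0.00125, adjusted 0.0119 and 0.00911). The same held for the choroid plexus sum (r 0.61, rho 0.59, permutation p = 0.00389 and 0.00706, adjusted 0.018 and 0.03). In that sum Clic6 averaged 17.4 CPM, Prlr 8.54, Kl 8.18 and Ttr 6.51, and Folr1 and Kcne2 only 0.0721 and 0.0768 CPM. Relations to single markers were not tested. The Pcdhgc3 excess went with the markers of endothelial cells (r 0.75, rho 0.75, permutation p = 0.00012 and 0.00027, adjusted 0.00153 and 0.00344, r 0.74 without 2 libraries, −0.04 to 0.85 within groups). It also went with oligodendrocytes (r 0.71, rho 0.73, permutation p = 0.00044 and 0.00034, adjusted 0.00374 and 0.00347, r 0.63 without 2 libraries, 0.65 to 0.98 within groups). With the microglia markers it had r 0.70 (rho 0.65, permutation p = 0.00053 and 0.00253, adjusted 0.00386 and 0.0143, r 0.58 without 2 libraries, 0.38 to 0.96 within groups). With the GC tilt it had r 0.63 (rho 0.59, permutation p = 0.00315 and 0.00767, adjusted 0.0161 and 0.0301), which fell to 0.43 without F2 no-stress replicates 16 and 18. The separate part of each was not tested.  Within-group values of r rest on 5 mice each.

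**Figure D5:**
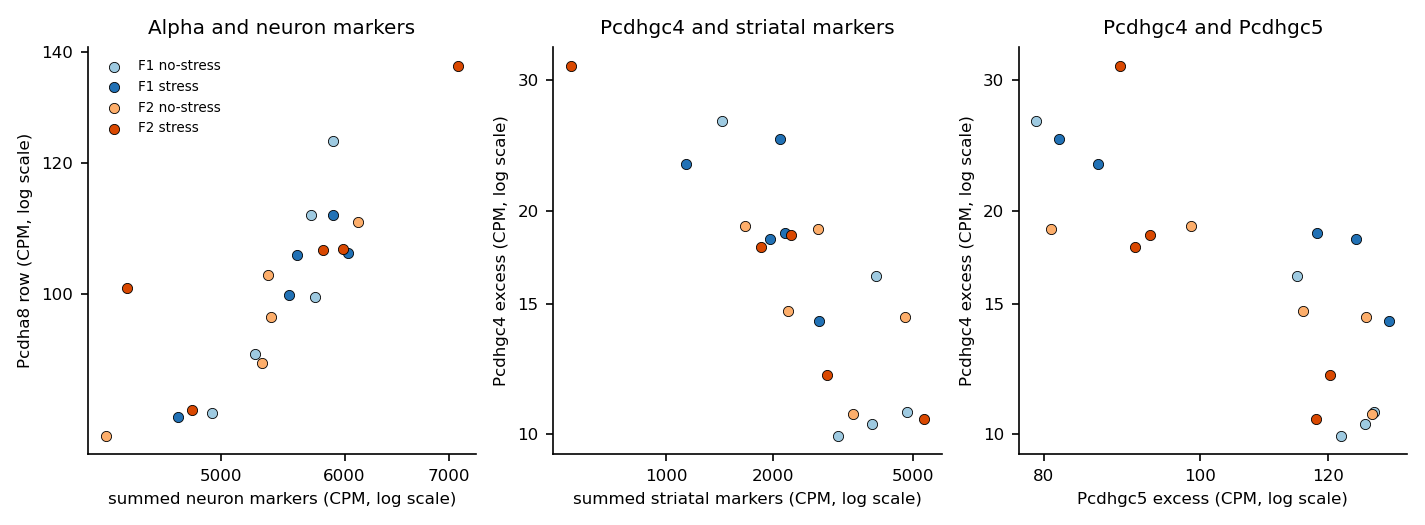
The Pcdha8 row against summed neuron markers, the Pcdhgc4 excess against summed striatal markers, and the Pcdhgc4 against the Pcdhgc5 excess (CPM, log axes), with 1 point per mouse coloured by group. The first relation rises (r 0.84), the second falls (r −0.83), and in the third the mice form a lower and an upper Pcdhgc5 range with no mouse between 98.7 and 115 CPM.

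Genes that act on the choice of protocadherin promoters were examined as a list of 23, of which 22 could be tested. In F1, 0 passed, against 0% of all genes, with Dnmt1, the maintenance DNA methyltransferase, at the smallest p (0.26 ± 0.09, adjusted p = 0.739). In F2, 4 were higher and 2 lower in the stress than in the no-stress lineage, where 7.92% of all genes were called. The 4 were cohesin genes. Pds5b, a cohesin regulator, rose from 135 ± 5.39 to 165 ± 15.2 CPM (SD over 5 mice each, a log2 difference of 0.30 ± 0.07 SE with adjusted p = 0.0171), and Smc3, a core subunit, from 49.7 ± 4.96 to 61.5 ± 5.89 CPM (0.31 ± 0.08, 0.0234). Stag2 (0.28, adjusted p = 0.0308) and Rad21 (0.25, 0.0481), named here after their values were seen, are further subunits. Wiz, a zinc finger partner of histone H3 lysine methyltransferases, fell from 43.1 ± 5.53 to 31.0 ± 3.38 CPM (−0.47 ± 0.10, 0.0114). Ehmt2, which encodes such an enzyme, fell from 164 ± 16.8 to 114 ± 26.6 CPM (−0.52 ± 0.12, 0.0155). The F1 no-stress and stress means were 155 and 167 CPM for Pds5b and 57.6 and 59.5 CPM for Smc3. They were 77.2 and 76.8 CPM for Stag2 and 127 and 126 CPM for Rad21. For these cohesin genes the F2 no-stress mean was the lowest of all groups. Wiz averaged 32.8 and 35.1 CPM in F1 and Ehmt2 131 and 130 CPM. For both, the F2 no-stress mean was the highest and the F2 stress mean the lowest.

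With only the 2 groups compared in the fit 0 genes passed in F2, so all 6 lost the call. Wiz passed without each of the 20 libraries in turn, while Ehmt2 and Pds5b lost the call without 2, Smc3 without 5, Stag2 without 6 and Rad21 without 15. With the trend over GC content and length entered 0 of the 6 passed, with adjusted p from 0.22 to 0.611 and values from −0.16 for Wiz to 0.18 for Stag2. Ctcf itself, at 60.5 CPM, had values of −0.11 ± 0.07 in F1 and 0.09 ± 0.07 in F2 (adjusted p = 0.74 and 0.462). In the difference between generations Wiz alone of the list passed (−0.57, adjusted p = 0.04), against 2.52% of all genes, and it did not with the offset (adjusted p = 0.509). It lost this call without 12 of the 20 libraries in turn. Within the no-stress lineage, where 2.0% of all genes were called, Wiz was higher in F2 than in F1 (0.39, adjusted p = 0.0455, with the offset 0.446). It did not pass without 15 of 20 libraries in turn or with only the 2 groups compared.

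Of 20 genes for signalling and adhesion partners, 2 were higher and 2 lower in F2 stress than F2 no-stress mice, against 7.92% of all genes. The F1 comparison called 0 of them, against 0% (smallest p for Brk1, −0.29, adjusted p = 0.739). Pdcd10, a scaffold protein, rose from 26.4 ± 2.30 to 34.2 ± 1.46 CPM (0.37 ± 0.08, adjusted p = 0.0111), and Marcks, an actin-linked kinase substrate in dendrites, from 177 ± 31.0 to 232 ± 25.8 CPM (0.40 ± 0.11, 0.0379). Nlgn2, an adhesion protein of inhibitory synapses, fell from 268 ± 23.1 to 216 ± 18.7 CPM (−0.31 ± 0.08, 0.0218), and the kinase gene Src from 93.2 ± 11.7 to 75.7 ± 3.202 CPM (−0.30 ± 0.08, 0.0346). The F1 no-stress and stress means were 35.6 and 32.3 CPM for Pdcd10 and 181 and 186 CPM for Marcks. They were 220 and 233 CPM for Nlgn2 and 78.4 and 77.4 CPM for Src. The F2 no-stress mean was the lowest of all groups for Pdcd10 and the highest for Nlgn2 and Src. With only the 2 groups compared in the fit all 4 lost the call. Pdcd10 passed without each library in turn, and Nlgn2 lost the call without 5, Marcks without 6 and Src without 8 of the 20. With the offset 0 of these 4 passed (adjusted p from 0.202 to 0.568), and the values of Nlgn2 and Src turned to 0.15 and 0.10. Pdcd10 passed in the difference between generations (0.51, adjusted p = 0.0309) and between generations in the no-stress lineage (−0.43, 0.0212), and with the offset in neither (0.193 and 0.147). Of all genes 2.52% and 2.0% were called in these comparisons. Pdcd10 lost the call in the difference without 11 of the 20 libraries in turn. The call in the no-stress lineage was lost without 5, and also with only the 2 groups compared.

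The relatives of the clustered genes outside the locus did not pass in any of the 5 comparisons. Of all genes 0% were called in F1, 7.92% in F2 and 2.52% in the difference. Between generations the shares were 2.0% in the no-stress and 0.0120% in the stress lineage. At such shares 0 calls among 8 to 12 genes say little about these genes. Of 13 protocadherins encoded elsewhere 12 were tested and 0 were called. Their median log2 fold changes were 0.24 in F1 and 0.25 in F2, with 2 and 3 of 12 below 0. The smallest p belonged to Pcdh15 in F1 (0.54 ± 0.27, adjusted p = 0.739), Pcdh9 in F2 (0.28 ± 0.11, 0.108) and Pcdh1 in the difference (−0.47 ± 0.16, 0.109). Of 12 classical cadherins 0 were called (medians 0.06 and 0.05), with Cdh2 in F1 (0.24, 0.739) and Cdh22 in F2 (−0.45, 0.0943) at the smallest p. Of 8 genes for the proteases that cut protocadherins at the membrane 0 were called, with Psenen in F1 (−0.12, 0.74) and Adam10, the sheddase of gamma protocadherins, in F2 (0.26 ± 0.10, 0.0956).

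Around the locus, 16 neighbouring genes were listed and 15 tested. In F1, 0 passed, against 0% of all genes (smallest p for Rell2, −0.23, adjusted p = 0.739). In F2, 2 of the 15 were called, against 7.92% of all genes. Arap3, a regulator of small GTPases, fell from 9.96 ± 0.916 to 6.44 ± 1.46 CPM (−0.63 ± 0.14, adjusted p = 0.0121). Rell2 fell from 35.8 ± 2.16 to 27.1 ± 3.39 CPM (−0.40 ± 0.11, 0.0314). The F1 no-stress and stress means were 7.56 and 8.41 CPM for Arap3 and 31.3 and 26.7 CPM for Rell2. Both lost the call with only the 2 groups compared in the fit. Arap3 passed without each library in turn, and Rell2 lost the call without 6. Neither passed with the offset (−0.31, adjusted p = 0.262, and 0.04, 0.857). Arap3 also passed in the difference between generations (−0.78, 0.0395, with the offset 0.317), where 2.52% of all genes were called. It lost this call without 11 of the 20 libraries in turn. Of the cell type markers, 3 of 7 endothelial genes were called lower in F2, against 7.92% of all genes. Over the 7 genes 5 lay below 0, with a median of −0.15. Egfl7 fell from 20.5 ± 2.25 to 13.8 ± 2.13 CPM (−0.57, adjusted p = 0.0107, with the offset 0.127) and passed without each library in turn. Tie1, at 10.8 and 7.24 CPM (−0.58, 0.0287, with the offset 0.339), lost the call without 5 of the 20 libraries. Cldn5, at 19.4 and 13.8 CPM (−0.49, 0.0411, with the offset 0.748), lost it without 12. With only the 2 groups compared all 3 lost the call. The F1 no-stress and stress means were 16.7 and 15.6 CPM for Egfl7, 8.33 and 8.23 for Tie1 and 12.8 and 12.1 for Cldn5. For all 3 the F2 no-stress mean was the highest group mean. Within the no-stress lineage, where 2.0% of all genes were called, Cldn5 was higher in F2 than in F1 (0.60, edgeR adjusted p = 0.0415). It lost this call with the offset, without 13 of the 20 libraries and with only the 2 groups compared. In this comparison 0 of the 7 genes lay below 0. The 8 other marker lists held 0 calls between lineages in F1 or F2. The part of these cell types in the values of the locus was not tested.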

How the data were processed

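RNA enriched for poly-A tails was prepared with a stranded kit from amygdala punches of 20 mice, per the labels' protocols. Per the submitters' processing notes the aligner was STAR 2.5.3a and the build GRCm38. No source used here names the counting tool, annotation, strand setting or handling of overlapping genes. The table, as deposited, holds whole-number counts per gene with nearly equal column totals, 13654890 to 13714805, so it may be scaled and the sequencing depth is unknown. The members and gene lists were chosen with earlier results of these data known.

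Counts were filtered with filterByExpr by group, scaled by TMM (factors 0.956 to 1.04) and fitted for 16727 genes in all 20 libraries with edgeR 4.0.16 (robust quasi-likelihood, R 4.3.3), with Benjamini-Hochberg adjustment over all genes and a threshold of 0.05. DESeq2 1.42.0, limma-voom (limma 3.58.1), library totals, no filter, an offset for GC content and length, 1 surrogate variable (sva 3.50.0), only the groups compared, a threshold of 0.1 and leaving out each library were alternatives. CPM values use TMM-scaled totals. Gene models came from GENCODE for GRCm38. The edgeR script was tested on simulated counts. Named members were the 3 most abundant per cluster, the C-type members, called members and the 2 of smallest p per cluster in F1, F2 and their difference; from each list up to 4 called genes, otherwise the 1 of smallest p. The labels do not say whether mice share a litter, so p-values measure the spread between these mice. Permutation tests used 100000 permutations, or all for 8 mice.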

Additional observations from a re-analysis of the deposited data

Results flagged for a closer look

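In 7 of 124 tests of a member's values within a group of 5 mice, 1 mouse stood apart by Dixon's criterion, where chance gives about 1 in 20. Pcdhb10 was highest in F2 stress replicate 12, at 4.23 CPM against 3.21 to 3.45 CPM in the other mice. Pcdhb8 was lowest in F2 no-stress replicate 17, at 2.44 CPM against 3.99 to 4.54 CPM. Pcdhb11 was highest in F2 no-stress replicate 18, at 6.16 CPM against 4.16 to 4.74 CPM, and Pcdhb6 in F2 no-stress replicate 16, at 6.21 CPM against 3.41 to 3.82 CPM. Pcdhb1 reached 0.143 CPM, or 2 counts, in F1 stress replicate 3 and was at 0 in the other 4 mice. With 4 values at 0 the criterion flags any value above 0, so this flag carries no information. The Pcdhac1 excess was highest in F1 stress replicate 1, at 4.31 CPM against 1.86 to 2.26 CPM. The Pcdhgc5 excess was lowest in F1 no-stress replicate 6, at 79.2 CPM against 115 to 128 CPM.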

How the results depend on the processing

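In 159 combinations of comparison and alternative 0 members were called, the smallest adjusted p being 0.0853, and leaving out libraries gave 0 to 0. All 84 alternative cluster levels moved by less than 1 SD. Counts of genes called among all tested moved far more. In F1 there were 2 with DESeq2 and 1 each with library totals and at a threshold of 0.1. In F2 there were 2019 with DESeq2, 737 without the filter, 13 with either GC and length offset, 2173 with a surrogate variable, 0 with only the groups compared and 2502 at 0.1. For the difference between generations there were 1211 with DESeq2, 100 without the filter, 0 with either offset and 1359 at 0.1. Between generations in the no-stress lineage there were 1013 with DESeq2, 208 with library totals, 61 without the filter, 9 with either offset, 681 with a surrogate variable, 0 with only the groups compared and 1057 at 0.1. In the stress lineage there were 6 with DESeq2, 1 with limma-voom, 0 with library totals, 4 with either offset, 0 with only the groups compared and 4 at 0.1. Leaving out 1 library gave 0 to 1 in F1, 241 to 2431 in F2, 0 to 1501 for the difference, 0 to 725 in the no-stress and 0 to 10 in the stress lineage.

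Several log2 fold changes turned sign, among them those of Nlgn2, Src and Rell2, which had been called. In F1, Pcdhac1 went to 0.0196 with library totals, 0.0157 with the offset by constant exons and 0.00858 with a surrogate variable, and Pcdha5 to 0.0216, 0.0178 and 0.00545. Leaving out libraries gave −0.0854 to 0.0591 for Pcdhac1 and −0.0850 to 0.0653 for Pcdha5. In F2, with the offset by constant exons, Pcdhac1 and Pcdha8 went to −0.0168 and −0.0188, and with the other offset Pcdhgc3 to 0.11. In the difference, Pcdhac1 and Pcdha8 went to −0.0325 and −0.0394 by constant exons, Pcdhgc4 to 0.22 with the offset and 0.0724 by constant exons, and Pcdhgc3 to 0.28 and 0.0742. Leaving out libraries gave −0.0982 to 0.0347 for Pcdhgc3 and −0.0988 to 0.0279 for Pcdhgc4. In F2, Nlgn2, Src and Rell2 went to 0.15, 0.10 and 0.0405 with the offset, and to 0.15, 0.10 and 0.0404 by constant exons. The cause was not tested. No paired analysis was possible because each mouse has its own number. Beta genes with few counts had wide errors.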
